A study of Mus musculus with 11 samples.

Results

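Transferrin and 9 further genes of iron handling were examined in the RPE/choroid, the retinal pigment epithelium (RPE) isolated together with the vascular choroid beneath it. The genes were chosen by symbol as Trf, Tfrc, Fth1, Ftl1, Slc40a1, Cp, Heph, Slc11a2, Ireb2 and Aco1, and all 10 were present among the 14602 genes counted. The data came from C57BL/6J mice aged 12 months at collection, with 6 libraries from naïve control mice that received no laser and 5 libraries from mice in which 1 eye received the 2RT nanosecond laser at 9 months of age, 3 months before collection. The comparison asks whether the laser left a lasting change in the tissue. No label or method ties a library to a litter or a sex, and nothing states that each library is 1 mouse, so p-values here measure the spread between these libraries. The libraries were made from RNA that had been pre-amplified with a SmartSeq kit, and total counts ranged from 25700881 to 38755994 per library.

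Iron circulates bound to transferrin, enters cells through the transferrin receptor, and crosses the endosomal membrane through a divalent metal transporter. It is stored inside the shell of ferritin and leaves through ferroportin, helped by copper enzymes that oxidise it so that transferrin can bind it again. The RPE stands between the blood of the choroid and the photoreceptors, and it is a known site of transferrin synthesis and of iron storage in the eye. Iron-responsive elements, short RNA hairpins bound by the iron regulatory proteins, control translation where they lie in the 5′ UTR of an mRNA and stability where they lie in its 3′ UTR.

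These hairpins, which the products of Aco1 and Ireb2 bind, were looked for by a strict pattern in the annotated UTRs of 1 transcript per gene. The pattern was a C, then 5 bases of stem, the loop CAGTGN, and 5 bases that pair with the stem with G-U pairs allowed, read on the transcript strand only. Tfrc-201 held 4 matches in its 3′ UTR, and Fth1-201, Ftl1-201 and Slc40a1-201 held 1 match each in the 5′ UTR, whereas the UTRs of the other 6 genes held none. Of all genes with a UTR long enough, 0.151% held a match in a 5′ UTR and 0.614% in a 3′ UTR. These shares count a match in any protein-coding transcript of a gene, not in 1 selected transcript. The sequences below are from the GENCODE M21 transcripts, with positions on GRCm38, the 6-base loop in capitals and 6 flanking bases on each side of the pattern.
Tfrc element 1, chr16:32631219-32631247, plus strand: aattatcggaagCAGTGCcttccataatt
Tfrc element 2, chr16:32631598-32631626, plus strand: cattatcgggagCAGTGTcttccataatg
Tfrc element 3, chr16:32631663-32631691, plus strand: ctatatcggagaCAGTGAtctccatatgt
Tfrc element 4, chr16:32631710-32631738, plus strand: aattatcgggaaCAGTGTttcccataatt
Fth1 element, chr19:9982732-9982760, plus strand: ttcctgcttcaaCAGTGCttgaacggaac
Ftl1 element, chr7:45459779-45459807, minus strand: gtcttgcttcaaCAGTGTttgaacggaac
Slc40a1 element, chr1:45925465-45925493, minus strand: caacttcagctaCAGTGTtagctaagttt
With Watson-Crick pairs alone, element 2 of Tfrc was lost and the other 6 were kept. The elements of Fth1 and Ftl1 began 93 and 84 bases from the transcript start, and that of Slc40a1 96 bases from it. The 4 elements of Tfrc began between 892 and 1383 bases after the last base annotated as coding. No match says only that these letters were not found in these UTRs. An mRNA without a match may still carry such a hairpin, since one with an unpaired base within the stem would be missed.

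Levels are given as CPM, the reads of a gene relative to a fixed total of reads per library, with library sizes adjusted by TMM factors. Per length, as CPM per kilobase of the selected transcript, Trf stood far above every other gene of the group, with a mean level of 16797.9 ± 4603.4 (SD, n = 11 libraries). The ferritin subunits Fth1 and Ftl1 followed with levels of 2611.5 ± 510.8 and 1292.4 ± 205.8, and then Aco1, with 43.7 ± 10.4. Each of these 4 genes was above the next in 11 of 11 libraries. Trf alone held 2.80% to 6.21% of the counts of a library, the second highest mean count of any gene, and 91.4% of all counts on the 10 genes.

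Cp, Slc11a2, Heph and Tfrc formed a middle group whose order was not fixed. Their levels per kilobase were 17.4 ± 7.52, 12.6 ± 3.48, 10.5 ± 2.81 and 9.68 ± 3.41 (SD, n = 11). Cp was above Slc11a2 in 7 of 11 libraries, Slc11a2 above Heph in 6, and Heph above Tfrc in 7, so that these neighbours did not differ beyond their spread. Ireb2, with 5.76 ± 1.72, was below Tfrc in 11 of 11 libraries, and Slc40a1, with values from 0 to 2.34, was the lowest. When the union of all annotated exons was taken as the length, Ftl1 moved above Fth1 and Tfrc moved to rank 5, while Trf stayed first and Aco1, Ireb2 and Slc40a1 kept their ranks.

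**Figure D1:**
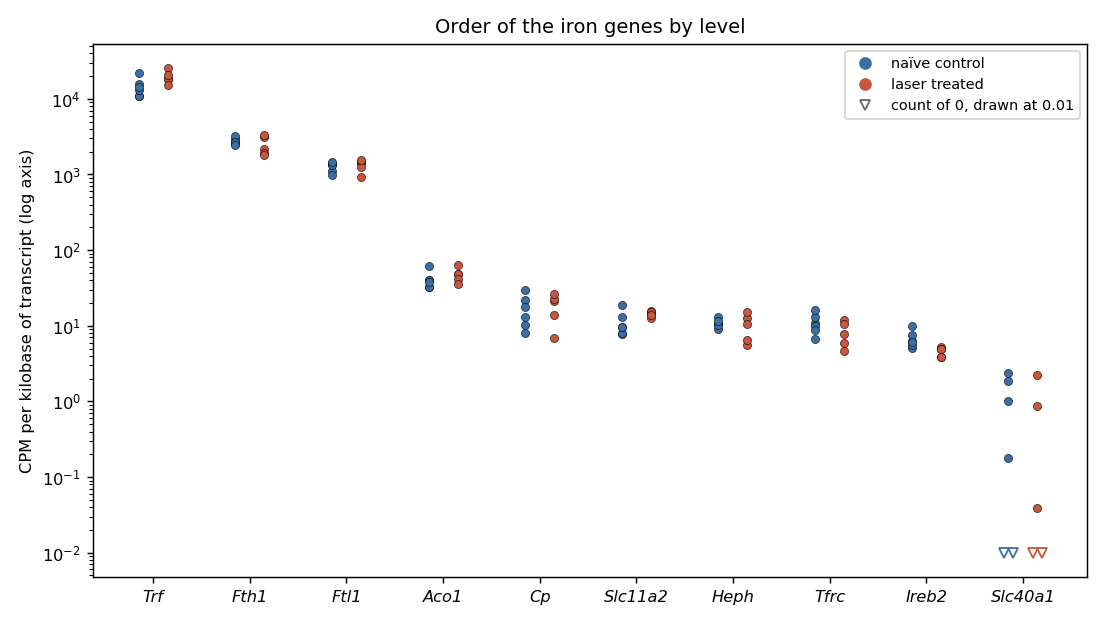
Level of each iron gene in CPM per kilobase of transcript on a log axis, with 1 point per library for naïve control (blue) and laser treated (red) libraries. Trf lies between 10777.8 and 25426.4, the ferritin genes come next, and Slc40a1 spreads from 4 libraries with a count of 0, drawn as open triangles, up to 2.34.

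The laser treated and naïve control libraries were compared over all 14602 genes with edgeR's quasi-likelihood test and Benjamini-Hochberg adjustment of the p-values. None of the 10 iron genes passed an adjusted p of 0.05, against 0% of all genes, and the smallest adjusted p of the group was 0.197, for Ireb2. Only 2 of 10 had an unadjusted p under 0.05, Trf higher and Ireb2 lower after laser, beside 15.9% of all genes, 8.24% higher and 7.68% lower. DESeq2 gave no adjusted p for Slc40a1. It called 0 of the other members at an adjusted p under 0.05, beside 6.68% of the genes for which it gave one. In none of the 10 were the CPM values of the groups fully apart, which held for 2.26% of all genes. There were 5 positive and 5 negative log2 fold changes, and their median was -0.02, equal to that of all genes. The count of 2 at an unadjusted p under 0.05 became 1 without naïve control replicate 1, 3, 4 or 5. It also became 1 without laser treated replicate 2 or 4, and Trf was the gene lost each time. Without naïve control replicate 6 it became 4. Over all genes that count ran from 1685 to 2771 with single libraries left out. In bulk tissue, fewer cells of a type and less RNA per cell cannot be told apart, and this applies to every level below.

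**Figure D2:**
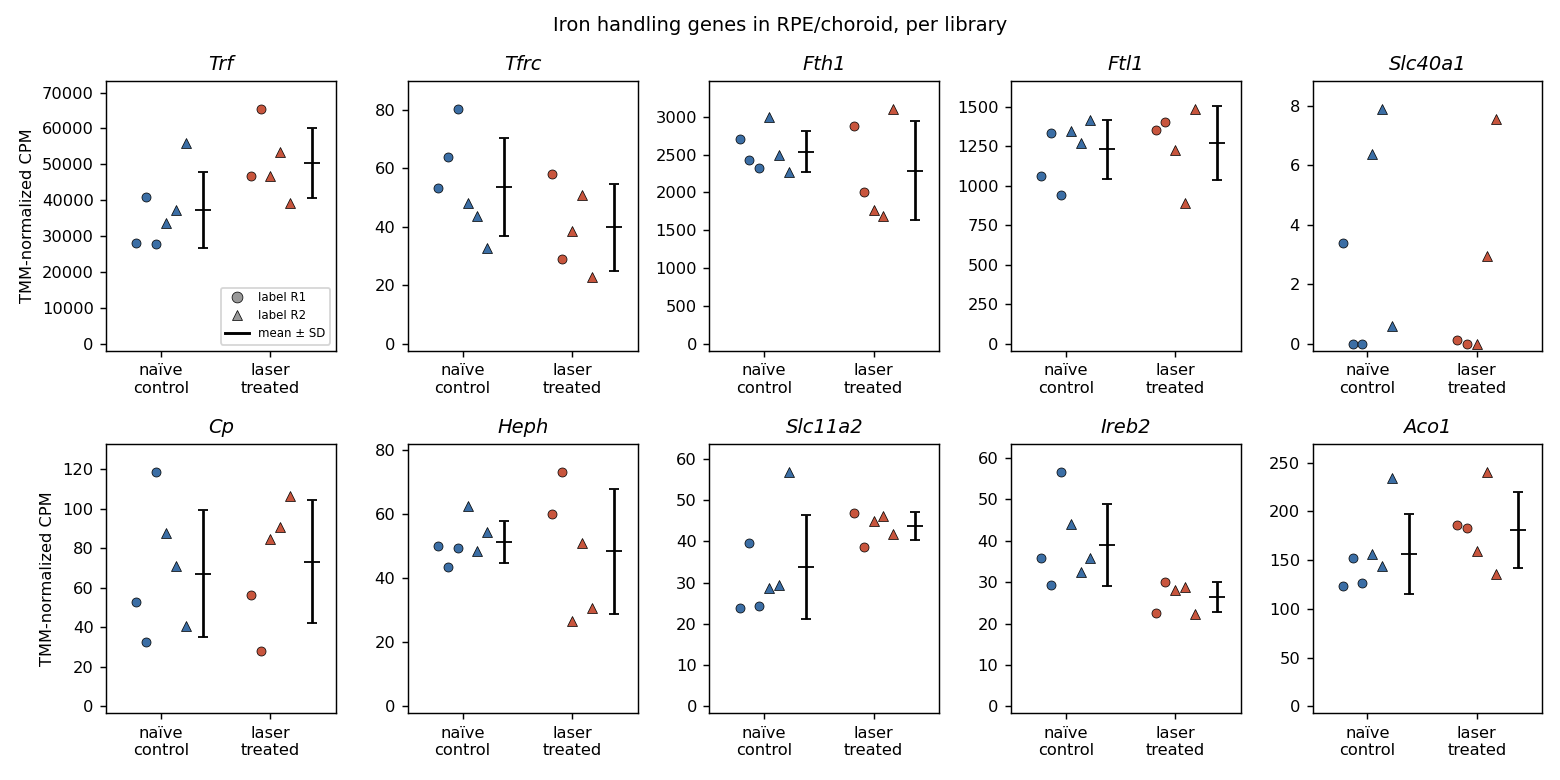
TMM-normalized CPM of each iron gene, with 1 point per library, 6 naïve control (blue) and 5 laser treated (red). Circles and triangles show the label R1 or R2 of the library's transcript file, and bars give the mean ± SD, left out for Slc40a1; the groups overlap in all 10 panels.

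Trf encodes transferrin, the secreted protein that carries ferric iron. On GRCm38 the gene spans 103204001 to 103230444 of chromosome 9, minus strand, with 19 separate exon stretches when all its annotated transcripts are merged. The lowest naïve control library had 27709.7 CPM, the median 35526.4 and the highest 55878.2. The laser treated libraries 1 to 5 had 46689.2, 65371.2, 46823.0, 53452.8 and 39275.3 CPM. All 5 laser treated libraries were above the naïve control median, and 4 of 6 naïve control libraries were below every laser treated one, but naïve control replicate 6 was above 4 of the 5. The means were 37241.5 ± 10491.3 CPM (SD, n = 6) and 50322.3 ± 9794.7 CPM (SD, n = 5). On the log2 scale the difference was 0.43 ± 0.19 (standard error, SE, unadjusted p = 0.0352, adjusted p = 0.277 by edgeR), or 1.35-fold with a 95% interval from 1.02 to 1.78. With single libraries left out the difference ran from 0.32 to 0.57, with edgeR unadjusted p-values from 0.00297 to 0.112. It was larger among the 5 libraries whose transcript files carry the label R1, at 0.82 (adjusted p = 0.205), than among the 6 labelled R2, at 0.16 (adjusted p = 0.939). The difference between these labels was not tested, and the sources used here do not say what the labels mean.

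A second measure of Trf did not have this direction. When the TPM of the deposited transcript files were summed per gene, the log2 fold change of Trf was -0.16 (limma, unadjusted p = 0.515). These files hold assembled transcripts of 1 exon each. In the annotation, 79.8% of the 50-base windows of Trf-201 also occur in Gm20425, a gene model that overlaps Trf on the same strand and has no row of its own in the count table. Whether reads on the shared part were counted for Trf depends on counting settings that are not given in the sources used here.

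Markers of myelin-forming cells, which are another known source of transferrin, moved with the groups. Of 9 listed genes of Schwann cells and oligodendrocytes, 7 were in the table, and 5 of these, Mbp, Sox10 and Cnp among them, had higher values after laser at an unadjusted p under 0.05, none at an adjusted p under 0.05. Of all genes, 8.24% were higher at that unadjusted threshold. The summed level of the 7 genes ranged from 407.4 to 702.9 CPM in naïve control and from 618.5 to 1371.9 CPM in laser treated libraries. The defining marker Mog had no row in the table, and Mag was at 0 in at least 1 naïve control library. The library with the most Trf, laser treated replicate 2, had a summed level of 696.7 CPM, within the naïve control range, and laser treated replicate 1, with the highest sum, had 46689.2 CPM of Trf. The part of these cells in the Trf values was not tested. The summed level of 12 RPE markers ranged from 92847.5 to 129042.4 CPM in naïve control and from 74985.5 to 124073.2 CPM in laser treated libraries, although Best1, one of them, was at 0 in libraries of both groups. Rgr alone had 51468.2 to 80080.3 CPM in naïve control and 44870.6 to 77077.8 CPM in laser treated libraries. Of the 12, only Mitf had an unadjusted p under 0.05, with a log2 fold change of -0.49 (edgeR unadjusted p = 0.0158, adjusted p = 0.22). Of all genes, 7.68% were lower at that threshold.

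Tfrc encodes the transferrin receptor, whose mRNA carries the 4 elements shown above. It lies on chromosome 16 from 32608920 to 32632794. Naïve control libraries had a lowest value of 32.6 CPM, a median of 50.7 and a highest of 80.2. The laser treated libraries 1 to 5 had 58.1, 28.8, 38.4, 50.8 and 22.7 CPM. Laser treated replicates 2 and 5 were below every naïve control library, naïve control replicates 2 and 3 were above every laser treated one, and the rest overlapped. Tfrc differed by a log2 fold change of -0.43 ± 0.27 (SE, edgeR adjusted p = 0.472), with a 95% interval from -1.01 to 0.15. It shrank to -0.10 (adjusted p = 0.945) once the dependence of the counts on GC content had been taken out by a loess fit (GC trend removed).

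Slc11a2 encodes DMT1, the transporter that moves ferrous iron out of the endosome into the cytosol, and lies on chromosome 15 from 100387898 to 100425072. The lowest naïve control library had 23.8 CPM, the median 29.1 and the highest 56.8. After laser, libraries 1 to 5 had 46.8, 38.6, 44.8, 46.2 and 41.7 CPM. The laser treated values lay close together, with an SD of 3.41 CPM against 12.6 in naïve control, and 4 of 6 naïve control libraries were below all of them. Naïve control replicate 6 was the highest of all 11 libraries. This gave a log2 fold change of 0.37 ± 0.22 (SE, edgeR adjusted p = 0.442), and of 0.56 (unadjusted p = 0.00586) without naïve control replicate 6, the library whose removal moved it most.

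The annotation gives Slc11a2 alternative last exons, and the coverage of the deposited transcript files over them allowed a description of their use. Of the coverage on the last exon of Slc11a2-201 and on an alternative one that lies upstream of it, the former held 54.2% to 89.9% in naïve control, with a median of 87.35%. In laser treated libraries it held 55.2% to 88.0%, with a median of 74.9%. The ranges overlapped, and the lowest share was that of replicate 3 in each group. Summed markers of the neural retina were high in both of these libraries, with 26904.7 CPM in naïve control replicate 3 and 19593.4 CPM in laser treated replicate 3, but also in naïve control replicate 1, with 22811.4 CPM and a share of 87.9%, and in laser treated replicate 4, with 20210.6 CPM and a share of 74.8%. The part of neural retina in this share was not tested.

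Fth1 and Ftl1 encode the heavy and light subunits of ferritin, the heavy one with the ferroxidase site that lets iron enter the shell. Fth1, on chromosome 19 from 9980598 to 9985098, had a lowest naïve control value of 2275.9 CPM, a median of 2465.7 and a highest of 2996.8. In the laser treated libraries 1 to 5 it had 2878.1, 2006.7, 1768.8, 1691.6 and 3101.8 CPM. Replicates 2, 3 and 4 of the laser treated group were below every naïve control library, whereas replicate 5 was above all of them. Its log2 fold change was -0.15 ± 0.17 (SE, edgeR adjusted p = 0.737), with a 95% interval from -0.51 to 0.21.

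Ftl1, on chromosome 7 from 45457944 to 45459884 on the minus strand, was close to level between the groups. Naïve control libraries ranged from 944.0 to 1420.8 CPM with a median of 1305.6. Laser treated libraries had 1356.9, 1408.0, 1227.9, 891.4 and 1486.3 CPM, so that replicate 4 was the lowest of all libraries and replicate 5 the highest. A log2 fold change of 0.05 ± 0.15 (SE, edgeR adjusted p = 0.919) had a 95% interval from -0.27 to 0.37, and its sign turned with the removal of a GC trend, to -0.20. Of the 50-base windows of Ftl1-201, 78.9% also occur in transcripts of 15 other annotated genes, several of them pseudogenes such as Ftl1-ps1 and Ftl2-ps, and none of these 15 has a row in the count table. For Fth1 the shared part was 6.59%. The Ftl1 counts are therefore uncertain, since how reads with several matches were counted is not given in the sources used here.

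Slc40a1 encodes ferroportin, the only known exporter of cellular iron, and had 20 counts or fewer in 6 of 11 libraries. It lies on chromosome 1 from 45908068 to 45926523 on the minus strand. In raw counts, naïve control replicates 1 to 6 had 120, 0, 0, 212, 291 and 20, and laser treated replicates 1 to 5 had 4, 0, 0, 103 and 252. A count of 0 allows up to 3 counts, or 0.0815 to 0.122 CPM in these libraries, far below the highest values of 7.89 CPM in naïve control and 7.57 CPM in laser treated libraries. Libraries at 0 and libraries with over 100 counts occurred in both groups, so that the spread within a group exceeded any difference between them. The transcript files showed the same split, with no assembled fragment in naïve control replicates 2 and 3 or laser treated replicates 1, 2 and 3, and 2 to 4 fragments in the 5 libraries with over 100 counts. The fitted log2 fold change was -0.52 with a standard error of 1.65 (adjusted p = 0.922). It ran from -1.98 to 0.04 with single libraries left out, the last without naïve control replicate 5.

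Such a split was uncommon among genes of the table. Of the 14602 genes, 303 had a count of 0 in 4 or more libraries, and 20 of these had 100 or more counts in 4 or more others. Slc40a1 was one of the 20, a criterion set after its counts had been seen.

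Cp and Heph encode ceruloplasmin and hephaestin, the copper ferroxidases that act beside ferroportin. Cp, on chromosome 3 from 19957054 to 20009145, had a lowest naïve control value of 32.6 CPM, a median of 61.8 and a highest of 118.7. After laser the values were 56.3, 28.0, 84.5, 91.0 and 106.5 CPM, and the groups overlapped over nearly their whole range. For Cp the log2 fold change was 0.12 ± 0.36 (SE, edgeR adjusted p = 0.916). Within the labels it pointed in opposite directions, at -0.65 among R1 libraries (adjusted p = 0.592) and 0.52 among R2 libraries (adjusted p = 0.80), neither past the threshold. With a GC trend removed the log2 fold change of Cp was 0.44 (unadjusted p = 0.222), and without naïve control replicate 3 it was 0.35.

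Heph lies on chromosome X from 96455359 to 96574485. It varied little between naïve control libraries, from 43.4 to 62.4 CPM with a median of 49.7, and more between laser treated libraries, which had 60.1, 73.2, 26.7, 51.0 and 30.8 CPM. Laser treated replicates 3 and 5 were below all naïve control libraries and replicate 2 was above them. Between the groups Heph had a log2 fold change of -0.09 ± 0.24 (SE, edgeR adjusted p = 0.910). Among R1 libraries it was 0.51 (adjusted p = 0.262) and among R2 libraries -0.59 (adjusted p = 0.792).

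Ireb2 and Aco1 encode the iron regulatory proteins IRP2 and IRP1, which bind the elements shown above when iron is scarce; the Aco1 product is a cytosolic aconitase when it holds an iron-sulfur cluster. Ireb2, on chromosome 9 from 54863789 to 54912530, had the smallest p of the group. Naïve control libraries had a lowest value of 29.2 CPM, a median of 35.8 and a highest of 56.6. The laser treated libraries 1 to 5 had 22.6, 29.9, 28.0, 28.8 and 22.4 CPM. All 5 were below the naïve control median, and 5 of 6 naïve control libraries were above every laser treated one, the overlap coming from naïve control replicate 2.

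The means of Ireb2 were 39.0 ± 9.94 CPM (SD, n = 6) and 26.3 ± 3.58 CPM (SD, n = 5). On the log2 scale this was a difference of -0.57 ± 0.19 (SE, unadjusted p = 0.00958, adjusted p = 0.197 by edgeR), or 0.675-fold with a 95% interval from 0.51 to 0.894. Within the labels it was -0.60 among R1 libraries (edgeR adjusted p = 0.403) and -0.48 among R2 libraries (adjusted p = 0.79). With single libraries left out it ran from -0.64 to -0.45, with unadjusted p-values from 0.00494 to 0.0257. With a GC trend removed it was -0.21 (adjusted p = 0.815). With TPM of the transcript files it was -0.14 (limma, unadjusted p = 0.626).

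GC content moved with the groups over the whole table, and it differs widely among the 10 transcripts. Ireb2 and Tfrc have the lowest GC content, 39.0% and 39.8%, and Ftl1 the highest, 58.1%, with Trf at 52.5%. Across all genes, the correlation between a library's deviation from the mean log2 CPM and GC content ran from -0.27 to -0.00 in naïve control and from 0.01 to 0.19 in laser treated libraries, a description over genes that share libraries and depth. With the trend removed, 1210 genes in place of 2325 had an unadjusted p under 0.05, and 0 of the 10 iron genes were among them. Trf then had a log2 fold change of 0.31 in place of 0.43 (edgeR unadjusted p = 0.0924, adjusted p = 0.639). Slc11a2 was little moved, at 0.34 in place of 0.37 (adjusted p = 0.694). The part of GC content in the values of Ireb2 and Tfrc was not tested beyond this removal.

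Aco1, on chromosome 4 from 40143081 to 40198338, had a lowest naïve control value of 123.1 CPM, a median of 148.0 and a highest of 234.4. In laser treated libraries 1 to 5 Aco1 had 185.6, 183.2, 159.1, 240.4 and 136.2 CPM. Naïve control replicate 6 and laser treated replicate 4 stood above the others of their groups. Aco1 had a log2 fold change of 0.21 ± 0.18 (SE, edgeR adjusted p = 0.632), of 0.35 without naïve control replicate 6 and of 0.07 without laser treated replicate 4.

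**Figure D3:**
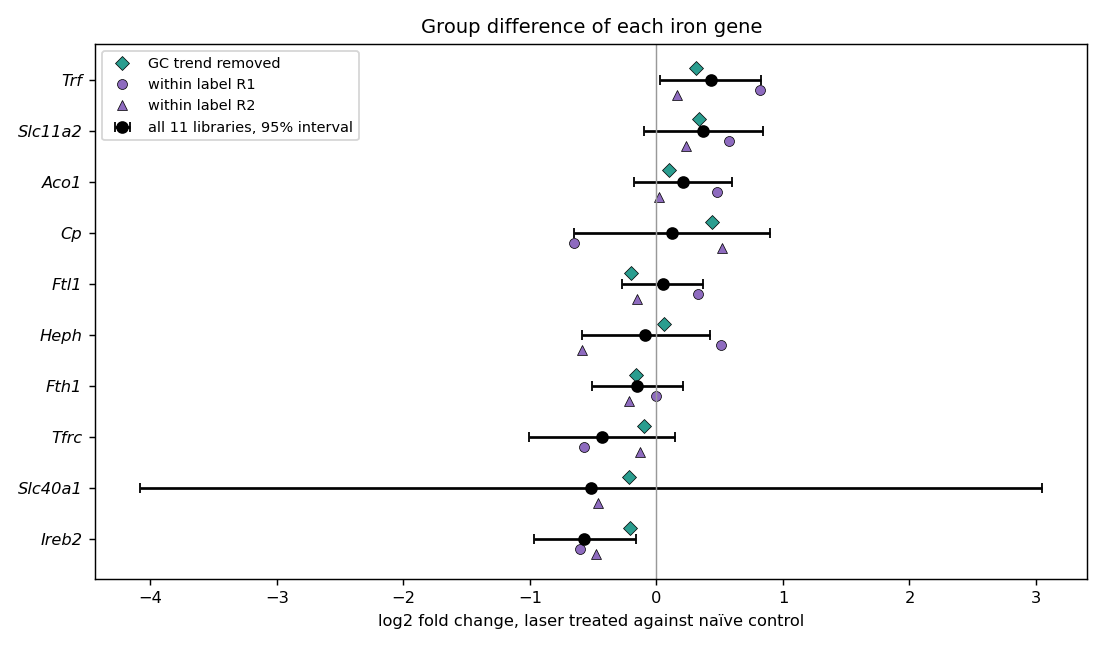
Log2 fold change of each iron gene, laser treated against naïve control, with its 95% interval from edgeR over all 11 libraries (black). Diamonds show the value with a GC trend removed, and purple circles and triangles the values within the labels R1 and R2; Ireb2 stays below 0 and Trf above 0 in all of these, while Cp, Heph and Ftl1 change sign.

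Since members of a pair work together, 3 ratios of levels per kilobase were tested for a group difference by exact permutation of the library labels, two-sided, with Benjamini-Hochberg adjustment over the 3. The ratio of heavy to light ferritin, Fth1 to Ftl1, was 2.16 as a geometric mean in naïve control and 1.84 in laser treated libraries, a log2 difference of -0.23 (exact permutation p = 0.186, adjusted 0.186). It lay between 1.67 and 2.65 in naïve control and between 1.48 and 2.21 in laser treated libraries, and the groups overlapped. With the union of exons as length the ratio itself would be lower, but the difference between groups would be the same, as the length cancels.

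The ratio of receptor to ligand mRNA, Tfrc to Trf, was 0.000749 in naïve control and 0.000398 in laser treated libraries. The log2 difference was -0.91 (exact permutation p = 0.0606, adjusted 0.0909). The lowest 2 of the 11 libraries were laser treated replicates 2 and 5, at 0.000232 and 0.000304, and naïve control replicate 6 came next at 0.000307. Without naïve control replicate 6 the difference was -1.17 (exact permutation p = 0.0159), and without laser treated replicate 1 it was -1.09 (exact permutation p = 0.0381). The other 9 values with 1 library left out did not pass 0.05, the nearest to 0 being -0.71 (exact permutation p = 0.111) without naïve control replicate 3 and -0.72 (exact permutation p = 0.133) without laser treated replicate 2. Among R1 libraries the difference was -1.47 and among R2 libraries -0.37, and with TPM of the transcript files it was -0.49 (exact permutation p = 0.442). Tfrc and Trf differ in GC content, 39.8% against 52.5%. With a GC trend removed their log2 fold changes were -0.10 and 0.31, and this ratio was not tested with that removal.

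The ratio of Ireb2 to Aco1 was 0.166 in naïve control and 0.0977 in laser treated libraries. The naïve control libraries ranged from 0.101 to 0.297, and the laser treated libraries 1 to 5 had 0.081, 0.109, 0.117, 0.0795 and 0.109. Only naïve control replicate 6 fell within the laser treated range. The log2 difference was -0.76 (exact permutation p = 0.0173, adjusted 0.0519), so that it did not pass the adjusted threshold. With TPM of the transcript files it was -0.33 (exact permutation p = 0.307). Ireb2 and Aco1 differ in GC content, 39.0% against 52.1%. With a GC trend removed their log2 fold changes were -0.21 and 0.10, and the ratio was not tested with that removal.

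**Figure D4:**
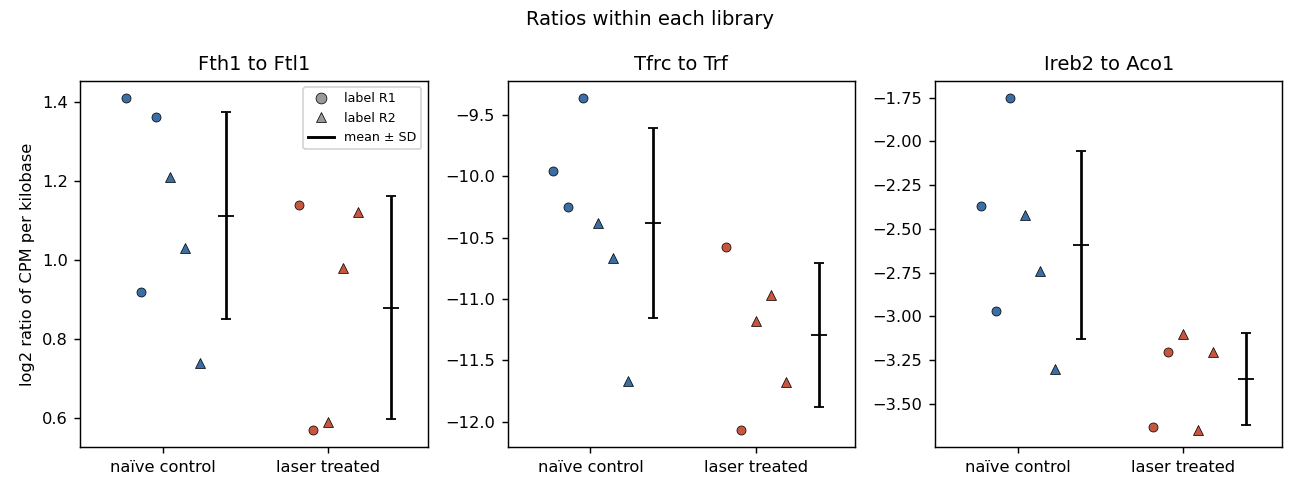
Log2 ratio of levels per kilobase within each library for Fth1 to Ftl1, Tfrc to Trf and Ireb2 to Aco1, with 6 naïve control (blue) and 5 laser treated (red) libraries and the mean ± SD of each group. The groups overlap in all 3 panels, in the last one through naïve control replicate 6 at -3.30 alone.

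Across the 11 libraries, Slc11a2 and Aco1 were the members whose log2 CPM went most closely with that of Trf. For Slc11a2 Pearson's r was 0.837 and Spearman's rho 0.764 (n = 11), and for Aco1 r was 0.828 and rho 0.845. Without the libraries farthest from the Trf median, laser treated replicate 2 and naïve control replicate 3, r was 0.949 for Slc11a2 and 0.878 for Aco1 (n = 9). Within the naïve control group alone r was 0.978 and 0.941 (n = 6). Over all 11 libraries the other members had r from -0.537 for Ireb2 to 0.343 for Ftl1. Several of these rested on few libraries: within naïve control r was 0.83 for Ftl1 and -0.729 for Tfrc, and without the 2 farthest libraries it was -0.0173 and -0.173. All of these are descriptions over libraries that differ in group and label, and 596 of 13701 other genes with a mean of at least 1 CPM had r of 0.8 or more with Trf.

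**Figure D5:**
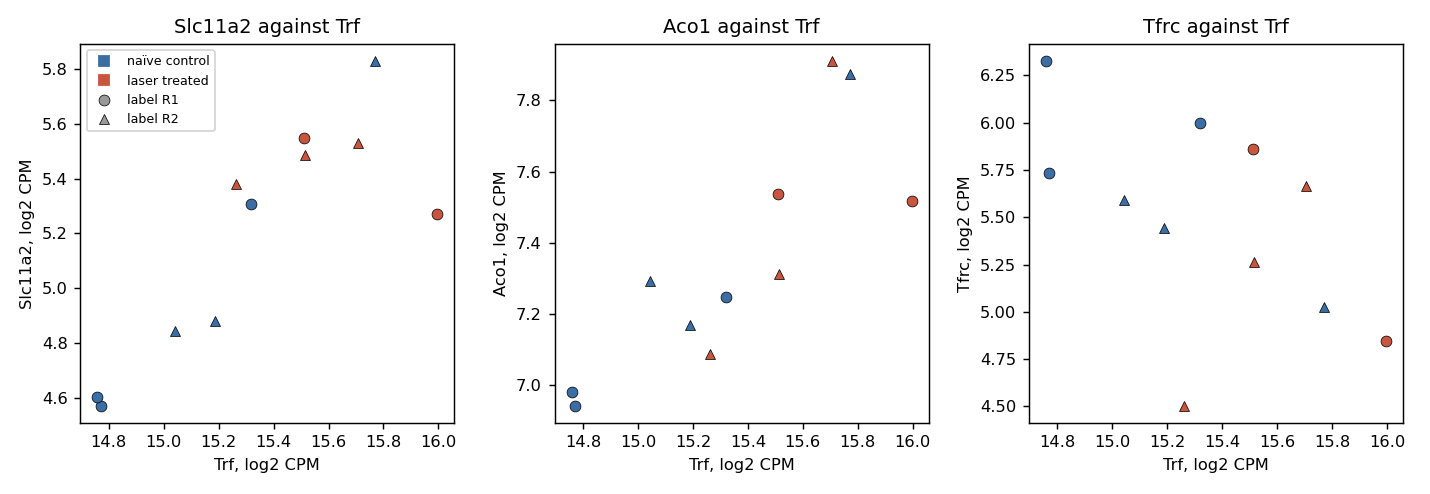
Log2 CPM of Slc11a2, Aco1 and Tfrc against that of Trf, with 1 point per library, naïve control in blue and laser treated in red, circles for label R1 and triangles for R2. Slc11a2 and Aco1 go up with Trf (r = 0.837 and 0.828, n = 11) and Tfrc goes down (r = -0.523, but -0.173 without the 2 libraries farthest from the Trf median), with naïve control replicate 6 at the upper end of the first 2 panels.

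The 5 genes most like Trf over the libraries were Loxl1, Gldc, Acsl6, Col8a1 and Spry1. Their r with Trf ran from 0.956 to 0.960 and their rho from 0.909 to 0.964 (n = 11), and r stayed between 0.915 and 0.925 without the 2 farthest libraries. Loxl1 encodes a lysyl oxidase-like enzyme of elastic fibres, Gldc the glycine decarboxylase of mitochondria, Acsl6 a long-chain acyl-CoA synthetase, Col8a1 a collagen chain and Spry1 an inhibitor of receptor tyrosine kinase signalling. Their log2 fold changes after laser ran from 0.33 to 0.57, with adjusted p-values from 0.197 to 0.334.

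The wider iron pathway was read from a list of 99 genes in 8 roles, the 10 members included, of which 90 were in the table. Of these, 15 (16.7%) were higher and 6 (6.67%) lower after laser at an unadjusted p under 0.05, beside 8.24% and 7.68% of all genes. None passed the adjusted threshold in edgeR, and DESeq2 called 5 of the 70 for which it gave an adjusted p, or 7.14%, near its 6.68% over all genes. The median log2 fold change was 0.09, against -0.02 for all genes. In transferrin and uptake, 4 of 15 were higher and 0 lower, with Mcoln1, the lysosomal channel that releases iron, at the smallest p. In storage and cytosolic chaperones the count was 1 of 7 higher, in export and ferroxidases 0 of 3, and in sensing and systemic control 2 of 12 lower, Ireb2 first. Roles hold few genes, and these counts stand beside the same 8.24% higher and 7.68% lower of all genes, with no test. The hormone genes Hamp and Hamp2 and the mitochondrial ferritin Ftmt had no row.

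Of the heme genes, 2 of 10 for uptake, export and breakdown and 1 of 9 for synthesis were higher at an unadjusted p under 0.05, beside 8.24% of all genes. Slc48a1, which carries heme out of the lysosome, had 549.6 to 826.0 CPM in naïve control and 832.8 to 1110.3 CPM in laser treated libraries, without overlap, with a difference of 0.43 on the log2 scale (adjusted p = 0.177). Alad, an enzyme of heme synthesis, had a log2 fold change of 0.31 (adjusted p = 0.282). Hmox1, the heme oxygenase that frees iron, was at 12.2 ± 5.89 CPM (SD) over the 6 naïve control libraries and at 15.2 ± 4.91 CPM over the 5 laser treated ones, with a log2 fold change of 0.31 (adjusted p = 0.718).

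Genes of iron-sulfur clusters pointed both ways. In the mitochondrial group 4 of 22 were higher and 2 lower, and in the cytosolic group 3 of 12 were higher and 2 lower. Of all genes, 8.24% were higher and 7.68% lower, and these counts over few genes have no test. Mms19, a component of the cytosolic targeting complex, had 13.8 to 26.3 CPM in naïve control and 28.7 to 41.5 CPM in laser treated libraries, a log2 fold change of 0.90 (adjusted p = 0.172). Abcb8, a mitochondrial ATP-binding cassette transporter, had 58.5 to 80.4 and 90.7 to 121.4 CPM, a log2 fold change of 0.60 (adjusted p = 0.172). In both genes, as in Slc48a1, every laser treated library was above every naïve control library, which held in one direction or the other for 2.26% of all genes; these 3 were named for having the smallest p of their role. On the lower side stood Cisd1, an iron-sulfur protein of the outer mitochondrial membrane, at -0.39 (adjusted p = 0.232) and Isca2, a mitochondrial assembly factor, at -0.41 (adjusted p = 0.282). With a GC trend removed, Mms19 was at 0.93 and Cisd1 at -0.52, while Abcb8 went from 0.60 to 0.36, Slc48a1 from 0.43 to 0.21 and Isca2 to -0.32, and Pcbp4, an RNA-binding protein of the iron chaperone family, went from 0.32 to 0.04 and Alad to 0.09.

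Markers of blood and of neural retina bear on iron genes in this tissue, since red cells carry iron and the neural retina was removed at dissection. Of 10 erythroid genes 5 were in the table, all with lower values after laser, Hbb-bs and Hbb-b1 at an unadjusted p under 0.05. Their summed level ranged from 60.7 to 404.2 CPM in naïve control and from 43.2 to 189.5 CPM in laser treated libraries. Slc4a1 and Ahsp, which define red cells, had no row. The 12 neural retina genes summed to 6609.6 to 26904.7 CPM and 4713.1 to 20210.6 CPM, with 11 of 12 lower after laser and 2, Gngt1 and Cnga1, at an unadjusted p under 0.05. No gene of either list passed an adjusted p of 0.05, and 7.68% of all genes were lower at an unadjusted p under 0.05. Naïve control replicate 3, with the highest neural retina sum, also had the highest Ireb2, Tfrc and Cp. Without that library the log2 fold change of Ireb2 was -0.45 and that of Tfrc -0.30, and the part of these cells in the iron gene values was not tested.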

How the data were processed

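The authors deposited raw read counts per gene, without normalization, for 14602 genes in 11 libraries; the submitters' processing notes name STAR 2.5.3a, featureCounts 1.5.3, StringTie 1.3.3 and edgeR 3.22.3, and mm10 and GRCm38 as builds. Columns with the authors' own fold changes and p-values were not used. Counts were compared with edgeR 4.0.16 (R 4.3.3; TMM factors, filterByExpr, which removed 0 genes, and robust quasi-likelihood fits), with replicate numbers not used as pairs, since deviations of same-numbered libraries correlated between -0.009 and 0.28. Annotation was GENCODE M21 on GRCm38; 97.6% of genes had a GC content. Levels per kilobase used the longest transcript with support level 1, a CCDS tag and an APPRIS principal tag. StringTie TPM, deposited by the authors per transcript, were summed per gene. The standard error beside each fold change gives the precision at these depths, and a count of 0 was read as up to 3 counts, for counting error only. The methods were tested on simulated data. Alternatives were DESeq2 1.42.0, limma 3.58.1 (voom with quality weights, and log2 TPM with pseudocounts of 1 or 0.1), other scalings and filters, the replicate block, the R1 or R2 label, a loess GC trend (span 0.3) and each library left out; fits within a label and union-exon lengths were chosen after seeing the data. Named genes are all members, per role the gene with the smallest unadjusted p under 0.05 in each direction, Hmox1, and the 5 genes most correlated with Trf (log2 of CPM plus 0.25). Of the lists, 5 symbols were matched by an older name. Lists of macrophages and microglia (11 of 11 genes in the table), endothelium (9 of 10), fibroblasts (8 of 8) and melanocytes (6 of 6) were also summed, and all of these overlapped between groups. The genes and lists were chosen with earlier results of these data known.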

Additional observations from a re-analysis of the deposited data

Results flagged for a closer look

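Of 42 sets of values per group (the 10 genes, the 3 ratios and the 8 marker sums), 4 had 1 library set apart from its group by Dixon's criterion; chance flags about 1 in 20. Aco1 had 234.4 CPM in naïve control replicate 6, against 123.1 to 156.7 CPM in the other 5 libraries, and without that library the log2 fold change of Aco1 was 0.35 in place of 0.21. The summed erythroid markers were at 189.5 CPM in laser treated replicate 5, against 43.2 to 85.6 CPM in the rest of its group. The summed melanocyte markers were at 2044.5 CPM in naïve control replicate 4, against 881.3 to 1241.3 CPM, and at 2157.2 CPM in laser treated replicate 5, against 895.4 to 1242.5 CPM. These 2 libraries also had the highest Fth1 of their groups, 2996.8 and 3101.8 CPM; the part of melanocytes in it was not tested.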

How the results depend on the processing

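No iron gene had an adjusted p under 0.05 in any of the 26 alternatives, and Tfrc, Slc11a2, Ireb2 and Aco1 kept the sign of their log2 fold change in all of them. Slc40a1 had a fold change in 24 of these alternatives, and DESeq2 gave no adjusted p for it. Over all genes the count at an adjusted p under 0.05 was 502 with DESeq2, 1 with library totals only, 2 with a minimum of 10 counts in every library, 1 with voom, 2 with TPM and either pseudocount, and 0 to 4 with 1 library left out; the count at an unadjusted p was 1210 with the GC trend removed and 903 within label R2. Of the 10 genes, 0 passed the unadjusted threshold with the GC trend removed, with TPM or within label R2, and 1 to 4 with 1 library left out. With both the GC trend removed and the replicate number as a block, 2 passed (Trf and Slc11a2), beside 1590 of all 14602 genes. Of the pathway list, with 90 genes in the table, 10 passed with the GC trend removed, 12 with TPM, 5 within label R2 and 12 to 27 with 1 library left out. Over all genes the counts were 1210 of 14602 with the GC trend removed and 903 of 14517 within label R2. With TPM they were 2069 and 2010 of 13861 for the pseudocounts of 1 and 0.1, and with 1 library left out 1685 to 2771. With the replicate number as a block, 5 of the 10 genes passed the unadjusted threshold (Trf, Tfrc, Slc11a2, Ireb2 and Aco1), beside 2546 of all 14602 genes. None of the 10 passed the adjusted threshold in that fit, and not every library correlated best with its own number. The TPM gave -0.16 for Trf, 0.31 for Fth1, -0.07 for Ftl1, 0.07 for Heph, 0.38 for the Fth1 to Ftl1 ratio and -0.33 for the Ireb2 to Aco1 ratio (exact permutation p = 0.307), and 67.6% of their unadjusted calls were higher, against 51.7%. Signs also turned for Ftl1 with the GC trend removed (-0.20, also with the block), within label R2 (-0.15) and with 1 library left out (-0.03 to 0.14), for Heph with the GC trend removed (0.06, and 0.00 with the block), within label R1 (0.51) and with 1 library left out (-0.29 to 0.07), for Cp with the label as a covariate (-0.01), within label R1 (-0.65) and with 1 library left out (-0.05 to 0.35), and for Slc40a1 with 1 library left out (-1.98 to 0.04). With 1 library left out the Tfrc to Trf difference was -1.17 to -0.71. The cause of these changes was not tested. The 95% intervals ran from -0.27 to 0.37 for Ftl1 and from -0.65 to 0.90 for Cp, the narrowest and widest but for Slc40a1, which was too sparse for a comparison.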
